A study of Mus musculus with 96 samples.

Results

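Myoblasts that oxidized NADH in the cytosol were compared directly with myoblasts that oxidized it in the mitochondrial matrix, while complex III of the respiratory chain was blocked with antimycin. The comparison used 6 of the 96 RNA-seq libraries of the series, 3 from cells expressing LbNOX and 3 from cells expressing mitoLbNOX. The libraries were chosen by their labels for line and inhibitor, and no measured value entered the choice. Across 11981 genes, the integrated stress response, ribosome biogenesis factors and mitochondrially encoded mRNAs stood lower in the LbNOX cells, whereas p53 targets, DNA replication genes and sterol synthesis genes stood higher.

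LbNOX is an NADH oxidase from Lactobacillus brevis that regenerates NAD+ by passing electrons from NADH to oxygen, and mitoLbNOX is the same enzyme with a targeting sequence that carries it into the matrix. Antimycin blocks complex III, which passes on electrons from ubiquinol, so complex I loses its electron acceptor and NADH is no longer reoxidized by the chain. Both enzymes act on NADH and neither takes electrons from ubiquinol. Piericidin blocks complex I itself. In the integrated stress response (ISR), kinases phosphorylate the translation factor eIF2 alpha, general protein synthesis slows, and translation of the transcription factor ATF4 is favored. ATF4, with partners such as CHOP (the product of Ddit3), activates genes of amino acid synthesis, transport and tRNA charging.

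The cells were C2C12, a mouse myoblast line that can be differentiated into myotubes but was kept proliferating here. Stable lines were made with lentiviruses, each carrying LbNOX, mitoLbNOX or, in the control line, luciferase under the doxycycline-inducible TRE3G promoter. Doxycycline at 300 ng/ml was added 24 hr before treatment. Cells then received 0.5 µM antimycin for 10 hr in media without pyruvate and uridine, with 10 mM glucose, 4 mM glutamine and 10% dialyzed fetal bovine serum. The LbNOX and mitoLbNOX lines treated in the same way with DMSO or with 0.5 µM piericidin (3 libraries each) gave the background, and the luciferase line with antimycin or DMSO (3 libraries each) gave reference levels. The model also held libraries treated with oligomycin, an ATP synthase inhibitor (LbNOX and luciferase lines), the luciferase line with piericidin, and a line expressing NDI1, a yeast NADH dehydrogenase, with DMSO or piericidin, which entered the scaling, the gene filter and the estimate of the spread. Replicates are numbered samples, and nothing in the labels says that they came from separate cultures, so the p-values below measure the spread between these samples, which may be technical.

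The 6 libraries held 8504635 to 12425649 counts, and mitochondrially encoded transcripts took 2.13 to 2.57% of them. Levels are given as CPM, counts relative to library size after TMM scaling, and differences as log2 fold changes of LbNOX over mitoLbNOX cells, so a positive value is a higher level in LbNOX cells. Each came from the edgeR quasi-likelihood test with Benjamini-Hochberg adjustment, and a gene with an adjusted p under 0.05 is called. In these bulk samples, a change in the share of cells in a state and a change in RNA per cell cannot be told apart. The myoblast labels matched the markers measured, with Myod1 at 55.2 to 98.3 CPM in the 6 libraries. The summed level of 12 markers of other cell types was 7.34 to 12.1 CPM in LbNOX cells and 9.90 to 11 CPM in mitoLbNOX cells, and the summed level of 12 myotube markers was 35.6 to 40.3 and 60.8 to 65.5 CPM.

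The transgene itself differed between the lines. The deposited table has 1 row for LbNOX, which holds counts in both lines and does not separate the targeted from the untargeted enzyme. With antimycin this row read 220, 261 and 315 CPM in LbNOX cells and 701, 845 and 733 CPM in mitoLbNOX cells, and it was at 0 in the control line. The mitoLbNOX cells were therefore higher in every library, by 2.86-fold in the means (log2 fold change -1.52, SE 0.12, adjusted p = 1.78e-09). The difference was -1.02 with DMSO (adjusted p = 9.71e-05) and -0.85 with piericidin (adjusted p = 7.06e-05). Antimycin lowered the transcript in both lines, by -1.70 in LbNOX cells (from 867, 831 and 895 CPM with DMSO) and by -1.21 in mitoLbNOX cells, and these responses differed (interaction -0.50, SE 0.16, adjusted p = 0.026). The amount of transcript and the compartment of the enzyme cannot be told apart in any comparison of these 2 lines, and enzyme activity was not analysed here.

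With antimycin, 2447 genes were higher in LbNOX cells (20.4% of those tested) and 2864 were lower (23.9%), and 1015 of them differed by at least 2-fold. The list counts with antimycin given below are to be read against these shares. With DMSO the lines differed at 39 genes in either direction (0.326%), of which 11 were higher and 28 lower, while 664 genes had an unadjusted p under 0.05. That count depended on the processing, ranging from 14 to 22 when 1 DMSO library was left out, and it was 4 when only the DMSO samples of the 2 lines were modelled. With piericidin 128 genes were higher (1.07%) and 235 lower (1.96%). The higher count was 82 without replicate 2 of the LbNOX line and 83 without replicate 3 of the mitoLbNOX line, both with piericidin. The difference between the lines with antimycin was then tested against the difference with DMSO, as an interaction of line and inhibitor. The antimycin response of LbNOX cells was more positive at 1519 genes (12.7%) and more negative at 1981 (16.5%). Tested in the same way against piericidin, the difference between the lines was more positive with antimycin at 1482 genes (12.4%) and more negative at 1867 (15.6%). These comparisons share the 6 antimycin libraries, so their counts are not independent. The median log2 fold change over all genes was -0.004 with antimycin.

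**Figure D1:**
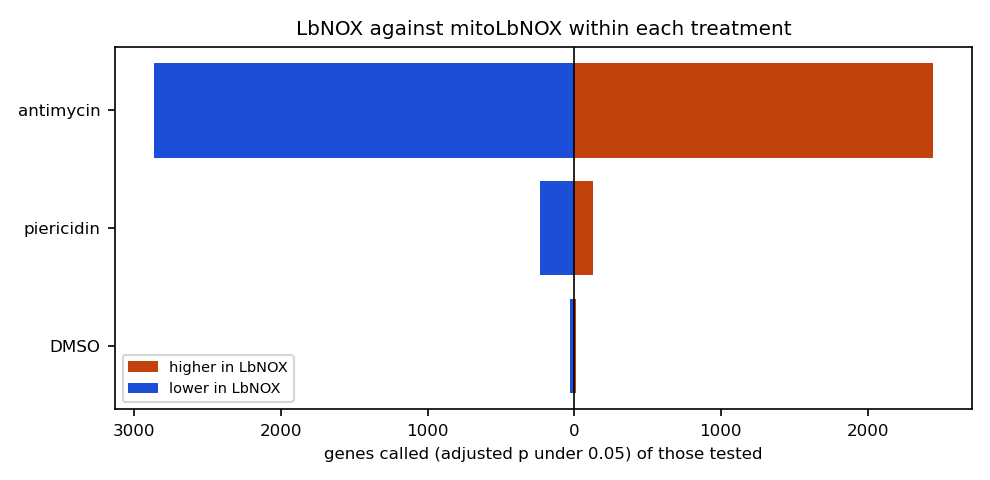
Genes called higher (right) or lower (left) in LbNOX than in mitoLbNOX cells within each treatment, of 11981 tested; the x axis counts genes. The antimycin bars reach 2447 and 2864 genes, the piericidin bars 128 and 235, and the DMSO bars 11 and 28.

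Each line was also compared with its own DMSO samples. In LbNOX cells antimycin raised 2786 genes (23.3%) and lowered 2738 (22.9%). In mitoLbNOX cells it raised 2966 (24.8%) and lowered 2745 (22.9%). The lines thus had similar numbers of responding genes, but 196 genes rose in LbNOX cells and fell in mitoLbNOX cells, and 268 fell in LbNOX cells and rose in mitoLbNOX cells. Myc, Atf4 and Ankrd1, described below, are among the latter, and the replication gene Fen1 is among the former.

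**Figure D2:**
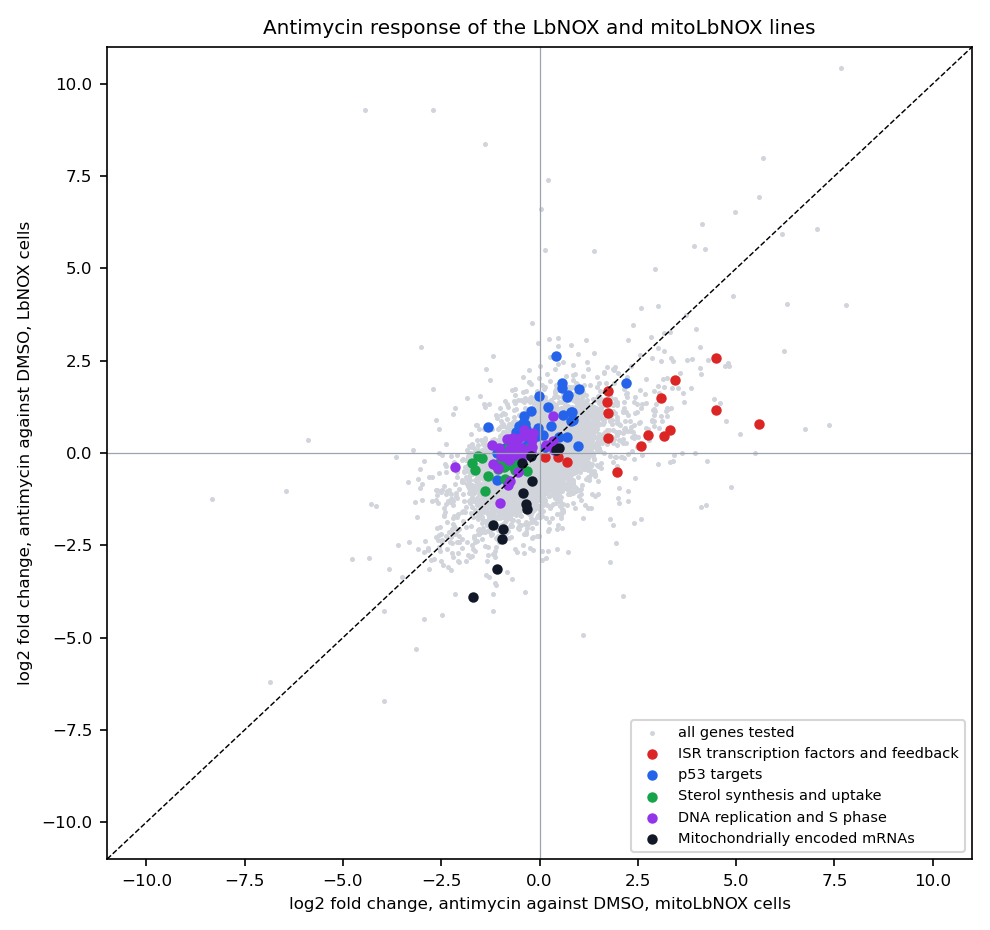
Antimycin response of each gene in mitoLbNOX cells (x axis) and LbNOX cells (y axis), as log2 fold change over the DMSO samples of the same line; the dashed line marks equal responses and colored points are members of the gene lists named in the key. Atf4 lies at 1.98 on the x axis and -0.51 on the y axis, and Cdkn1a at 0.56 and 1.89.

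The largest differences were in the ISR. Among 17 transcription factors and feedback genes of this response that were tested, 16 were lower in LbNOX cells and none was higher, with a median log2 fold change of -1.91. The exception was Ddit4, an mTORC1 inhibitor, at 0.16 (adjusted p = 0.72). The interaction was called for 12 of the 17, all negative. In LbNOX cells 11 of the 17 rose with antimycin and 1 fell (median 0.62), and in mitoLbNOX cells 16 rose (median 2.57).

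Atf4, the central transcription factor of the response (ENSMUSG00000042406, chr15:80255184-80257541, plus strand), was at 152, 157 and 146 CPM in LbNOX cells and at 943, 914 and 908 CPM in mitoLbNOX cells. The groups did not overlap, as was the case for 3241 of all genes tested in this direction (27.1%) and 2936 in the other (24.5%). There was a 6.08-fold difference of the means (log2 fold change -2.60, SE 0.034, adjusted p = 2.88e-31). Antimycin lowered Atf4 in LbNOX cells, by -0.51 on the log2 scale (adjusted p = 7.49e-14), and raised it by 1.98 in mitoLbNOX cells (adjusted p = 1.20e-28). Its mean in the luciferase line was 1550 CPM with antimycin and 226 CPM with DMSO, so the LbNOX cells lay below the untreated control and the mitoLbNOX cells below the treated one.

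Ddit3 (ENSMUSG00000025408, chr10:127290774-127296288, plus strand), which encodes the proapoptotic factor CHOP, was at 29.1, 30.5 and 33.1 CPM in LbNOX cells and at 402, 410 and 396 CPM in mitoLbNOX cells. The 13-fold difference (log2 fold change -3.70, SE 0.065, adjusted p = 1.13e-27) was larger than that of Atf4. Unlike Atf4, Ddit3 rose with antimycin in both lines, by 1.17 in LbNOX and by 4.48 in mitoLbNOX cells. Atf3 (ENSMUSG00000026628, chr1:191170296-191218039, minus strand), a stress-induced repressor of the same family, was at 2.51, 1.31 and 1.53 CPM against 61.5, 57.9 and 50.3 CPM, the largest fold change among the named genes (log2 fold change -4.94, SE 0.20, adjusted p = 2.32e-18). Its response in LbNOX cells was 0.78 (adjusted p = 0.0514), and its mean in antimycin-treated control cells was 326 CPM, above every library of both lines.

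Feedback and effector genes followed the same order of lines. Trib3, a pseudokinase that inhibits ATF4 and CHOP, was at 43.5, 44.1 and 38.8 CPM in LbNOX cells and at 374, 374 and 353 CPM in mitoLbNOX cells (log2 fold change -3.12, SE 0.079, adjusted p = 1.83e-23). Like Ddit3, Chac1 and Eif4ebp1 among the 17, it was already lower with DMSO, by -1.20 (adjusted p = 4.80e-09; all genes called with DMSO, 0.326%), and its interaction was -1.92 (adjusted p = 3.42e-13). Chac1, which degrades glutathione, was at 20.5, 25.0 and 28.3 CPM against 232, 218 and 236 CPM (log2 fold change -3.22, SE 0.11, adjusted p = 1.32e-20). The groups did not overlap for either gene, which the rule that named them required.

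**Figure D3:**
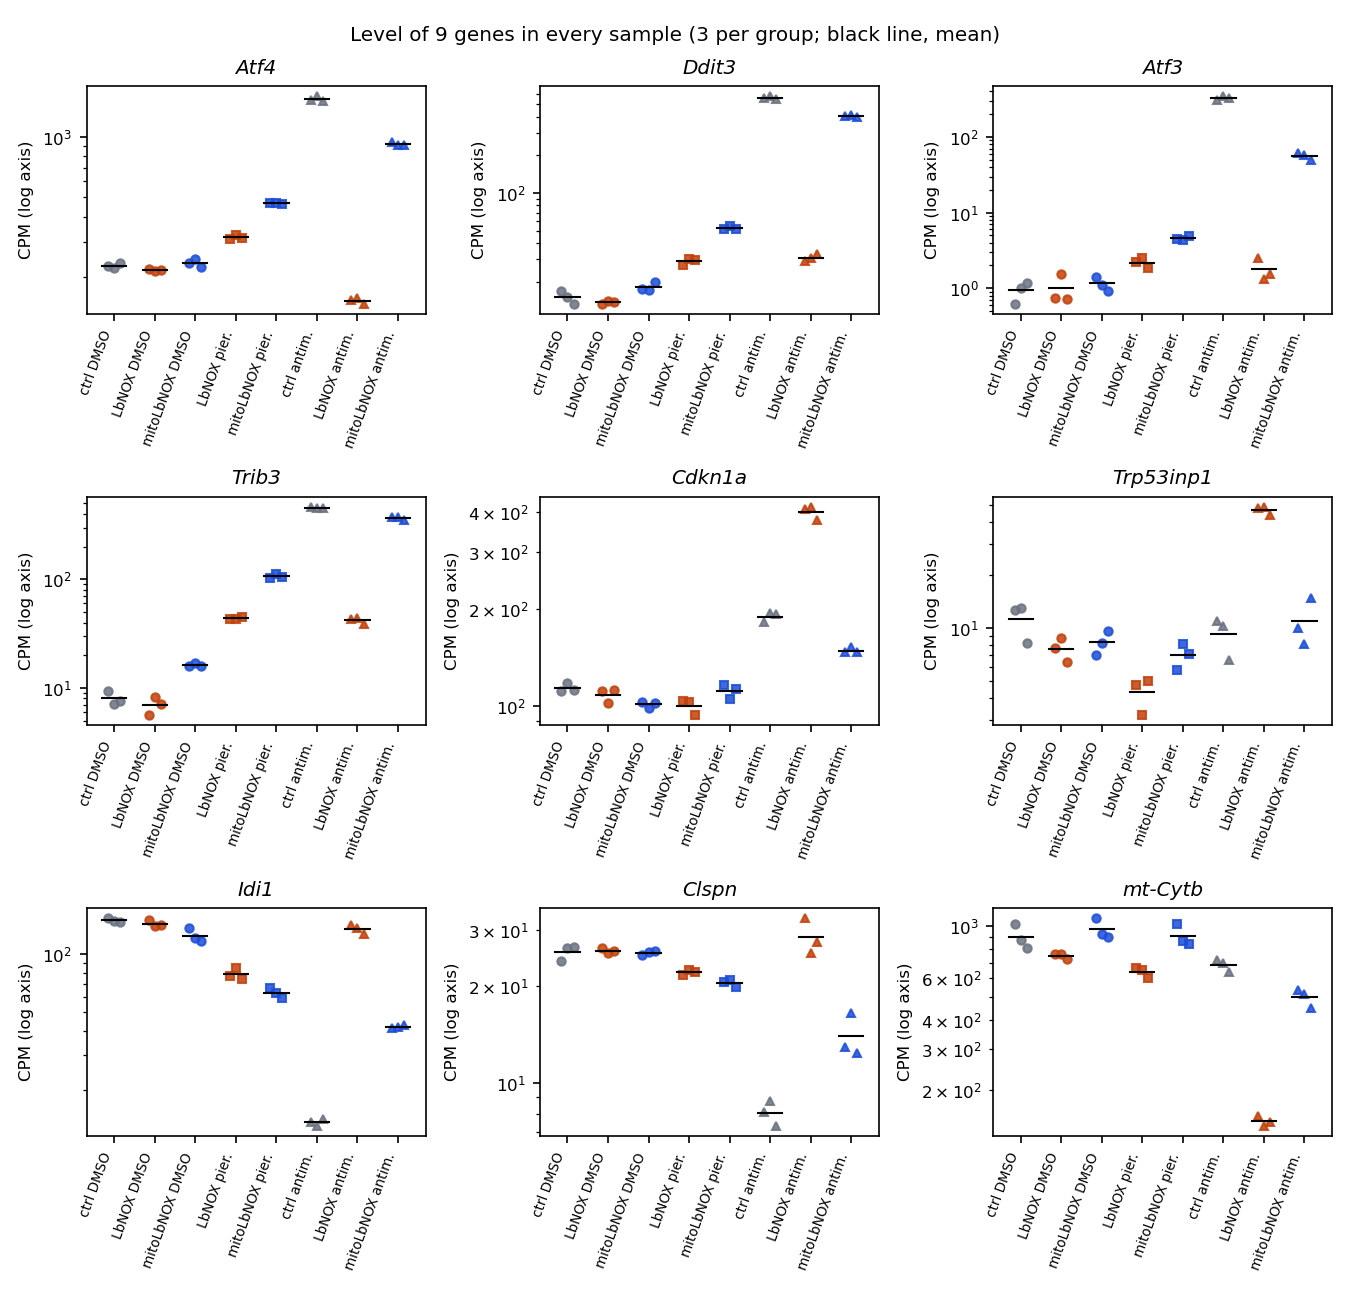
CPM (log axis) of 9 genes in the LbNOX and mitoLbNOX lines with DMSO, piericidin or antimycin and in the control line with DMSO or antimycin. Points are libraries, 3 per group, and black lines are means. Atf4 sits between 146 and 157 CPM in LbNOX cells with antimycin and between 908 and 943 CPM in mitoLbNOX cells, and Cdkn1a has the opposite order, at 377 to 414 and 147 to 152 CPM.

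Promoters are shown here because members of the ISR, sterol and replication lists differed mostly in 1 direction within each list. The windows run from 250 bases before to 50 bases after the start site given by RefSeq (GRCm38.p6). That start can differ from the GENCODE gene end behind the coordinates printed with each gene: the Atf3 window lies wholly inside the GENCODE gene, and the RefSeq starts of Idi1 and Gins3 lie inside theirs. A promoter was matched by gene ID or symbol for 15 of the 17 ISR genes tested, 15 of 23 sterol genes and 36 of 45 replication genes. The letters searched, on both strands, were TGATGCAA, the core of the amino acid response element read by ATF4 and CHOP, CCAATCA, the box bound by the factor NF-Y, and TTTCCCGC or TTTGGCGC for E2F sites. Matches of different spellings shared a base in 0 promoters. The first occurred in 5 of the 15 ISR promoters (33.3%: Atf3, Nupr1, Chac1, Vldlr and Jdp2) and in 279 of 27025 genes with a promoter, tested here or not (1.03%). The same letters were found in 4 of 12 tRNA synthetase promoters (33.3%) and 2 of 18 amino acid enzyme promoters (11.1%). The NF-Y box was present in 9 of 15 sterol promoters (60%) and in 2431 genes (9.0%). It was not limited to the sterol list, being present in 9 of 18 amino acid enzyme promoters (50%), 6 of 15 ISR promoters (40%, with Atf4, Ddit3 and Chac1), 10 of 36 replication promoters (27.8%), 3 of 12 tRNA synthetase promoters (25%) and 5 of 29 promoters of p53 targets (17.2%). E2F letters were present in 12 of 36 replication promoters (33.3%) and in 486 genes (1.80%), and in none of the promoters of the other lists searched. The list shares hold tested genes only, whereas the shares over 27025 genes include genes not tested here, so they cover unlike sets. A match describes the letters in the window and does not show binding. Of the genes with their values given here, 4 promoters follow, 5′ to 3′ on the strand of the gene, with the letters of 1 motif per gene in capitals as read on that strand: the amino acid response element core for Atf3 and Chac1, the NF-Y box for Idi1 and the E2F letters for Gins3. The NF-Y boxes of the Chac1 promoter are left in lower case.
Atf3 promoter, chr1:191183284-191183583, minus strand: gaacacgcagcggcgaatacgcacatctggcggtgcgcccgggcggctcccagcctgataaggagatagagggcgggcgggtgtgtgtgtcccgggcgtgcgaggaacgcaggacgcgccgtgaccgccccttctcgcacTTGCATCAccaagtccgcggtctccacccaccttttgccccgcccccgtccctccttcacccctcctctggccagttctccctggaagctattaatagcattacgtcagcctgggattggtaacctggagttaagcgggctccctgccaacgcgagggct
Chac1 promoter, chr2:119350992-119351291, plus strand: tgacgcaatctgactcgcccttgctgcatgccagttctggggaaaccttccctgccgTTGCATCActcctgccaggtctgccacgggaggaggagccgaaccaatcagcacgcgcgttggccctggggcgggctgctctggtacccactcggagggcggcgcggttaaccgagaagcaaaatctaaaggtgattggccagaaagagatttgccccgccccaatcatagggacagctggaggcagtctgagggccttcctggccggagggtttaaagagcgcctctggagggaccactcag
Idi1 promoter, chr13:8885356-8885655, plus strand: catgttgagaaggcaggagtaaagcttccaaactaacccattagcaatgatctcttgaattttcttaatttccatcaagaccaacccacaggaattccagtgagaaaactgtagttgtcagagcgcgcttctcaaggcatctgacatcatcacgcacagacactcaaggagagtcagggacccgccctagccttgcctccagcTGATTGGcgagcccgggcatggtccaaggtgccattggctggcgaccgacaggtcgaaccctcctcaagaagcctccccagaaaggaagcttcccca
Gins3 promoter, chr8:95633309-95633608, plus strand: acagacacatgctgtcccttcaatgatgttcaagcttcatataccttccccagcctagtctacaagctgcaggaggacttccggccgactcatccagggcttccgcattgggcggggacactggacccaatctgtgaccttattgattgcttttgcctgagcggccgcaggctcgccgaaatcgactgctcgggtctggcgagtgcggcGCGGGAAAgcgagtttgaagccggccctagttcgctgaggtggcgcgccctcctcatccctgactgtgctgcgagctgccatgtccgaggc
The first matched base lies 110 bases before the RefSeq start in Atf3, 193 in Chac1, 47 in Idi1 and 41 in Gins3.

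ISR targets in amino acid metabolism differed less than its regulators. Among 21 enzymes of amino acid and one-carbon synthesis, 14 were lower in LbNOX cells and 3 were higher (median -0.42). The interaction was called negative for 9 of them and positive for 3, and 18 of the 21 rose with antimycin in LbNOX cells as did 17 in mitoLbNOX cells. Gpt2, which makes alanine, was at 168, 178 and 167 CPM against 424, 415 and 447 CPM, with no overlap (log2 fold change -1.33, SE 0.10, adjusted p = 7.59e-12). The mitochondrial folate enzymes Aldh1l2 and Mthfd2 were lower by -1.02 and -0.99. The higher genes included Glul, glutamine synthetase, at 0.85 and Got2, the matrix aspartate aminotransferase, at 0.23. Glul and Got2, like other genes listed below only to complete a count of 5 or fewer, were chosen after their values were seen.

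Some of these enzymes differed before antimycin, since 4 of the 21 were already lower with DMSO and 9 had no called interaction. Cth, which releases cysteine from cystathionine, was 1 of them. It was at 69.1, 64.1 and 65.6 CPM against 135, 107 and 119 CPM with antimycin (log2 fold change -0.86, SE 0.085, adjusted p = 1.42e-09), but it differed by -0.81 with DMSO as well (adjusted p = 0.000115). Its interaction was -0.05 (adjusted p = 0.919), and it rose by 3.27 in LbNOX and 3.32 in mitoLbNOX cells. Its lower level in LbNOX cells was thus present in both treatments.

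Of 14 amino acid transporters, 9 were lower in LbNOX cells and 3 higher (median -0.57). Slc6a9, a glycine carrier, was at 33.6, 31.5 and 33.9 CPM against 101, 107 and 103 CPM (log2 fold change -1.65, SE 0.082, adjusted p = 1.75e-16). Slc3a2, the heavy chain shared by several amino acid exchangers, was at 344, 320 and 346 CPM against 749, 680 and 705 CPM (log2 fold change -1.08, SE 0.037, adjusted p = 2.76e-20). Slc1a4, a neutral amino acid carrier, fell with antimycin in LbNOX cells (-0.52) and rose in mitoLbNOX cells (0.88). The 3 higher carriers were Slc36a4 at 0.73, Slc43a1 at 0.64 and Slc7a6 at 0.20, and without replicate 1 of the mitoLbNOX cells only 1 of them was called (Slc43a1 at 0.48 and Slc7a6 at 0.17). Slc43a1 was also not called without replicate 2 of the LbNOX cells (0.50, adjusted p = 0.0774), without a count filter (adjusted p = 0.0988) or with only the groups compared (adjusted p = 0.076), and Slc7a6 without a count filter (adjusted p = 0.316).

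Cytosolic tRNA synthetases, which charge tRNAs with amino acids, were lower in 15 of 20 cases and higher in none (median -0.42). Farsb was at 55.6, 49.1 and 49.5 CPM against 113, 105 and 113 CPM (log2 fold change -1.10, SE 0.051, adjusted p = 3.23e-17). It fell with antimycin in LbNOX cells (-0.88, adjusted p = 8.05e-15), whereas Iars rose in both lines, by 0.26 and 0.88. Among 10 secreted factors linked to the ISR, 4 were lower (median of the 10, -0.31). Gdf15, a stress cytokine, was at 37.1, 36.6 and 38.5 CPM against 104, 103 and 113 CPM (log2 fold change -1.51, SE 0.099, adjusted p = 1.36e-13), and Inhba, a subunit of activin, differed by -1.62. Fgf21, a metabolic hormone, was at 1.35, 0.358 and 1.23 CPM against 23.1, 23.3 and 24.9 CPM (log2 fold change -4.54, SE 0.36, adjusted p = 1.07e-11). Its interaction was -2.26 (adjusted p = 0.377), since it was near 0 with DMSO in both lines. The last of the 4 was Vegfa, an angiogenic factor, at -1.12.

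With DMSO, 4 of 17 ISR factors, 4 of 21 amino acid enzymes, 1 of 14 transporters and 1 of 20 tRNA synthetases were lower in LbNOX cells and none was higher. Members of the ISR-linked lists also differed with piericidin. There, 12 of 17 transcription factors and feedback genes were lower in LbNOX cells (median -0.76), as were 15 of 21 amino acid enzymes (median -0.36), 13 of 20 tRNA synthetases (median -0.34) and 6 of 14 transporters (median -0.37), with none higher. Atf4 differed by -0.56 with piericidin and -2.60 with antimycin, and Ddit3 by -0.88 and -3.70. In the direct test of antimycin against piericidin, 11 of the 17 ISR factors were more negative with antimycin and 1 more positive. The amino acid enzymes divided, with 7 more negative and 7 more positive (4 to 7 and 5 to 8 over the alternatives).

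The kinases and sensors that start the ISR did not share a direction. Among 8 tested, 3 were lower in LbNOX cells, 2 were higher and 3 were not called (median 0.02). Impact, an inhibitor of the kinase GCN2, was at 66.3, 63.8 and 65.0 CPM against 151, 128 and 138 CPM (log2 fold change -1.10, SE 0.068, adjusted p = 4.21e-14). Oma1, the inner-membrane protease that relays mitochondrial stress, differed by -0.61 (adjusted p = 0.00109), and its substrate Dele1, listed in the table as 0610009O20Rik, by -0.44 (adjusted p = 0.000994). The higher genes were the kinases Eif2ak2 (PKR) at 0.72 and Eif2ak3 (PERK) at 1.08 (adjusted p = 0.0081; 0.87 and adjusted p = 0.0559 without replicate 3 of the LbNOX cells). The kinases Eif2ak1 (HRI) and Eif2ak4 (GCN2) differed by 0.22 (adjusted p = 0.14; 0.33 and adjusted p = 0.0413 without replicate 3 of the mitoLbNOX cells) and 0.13 (adjusted p = 0.52).

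ER and mitochondrial chaperones differed from one another. Of 18 ER chaperones and folding factors, 8 were higher and 5 lower (median 0.06; 3 lower without replicate 2 or 3 of either line). Herpud1, which acts in ER-associated degradation, was at 74.6, 68.1 and 69.4 CPM against 299, 287 and 269 CPM (log2 fold change -2.01, SE 0.055, adjusted p = 1.31e-22), and it fell in LbNOX cells (-0.40) and rose in mitoLbNOX cells (1.57). Hspa5, the ER chaperone BiP, differed by -0.75 and rose in both lines. Of 16 mitochondrial chaperones and proteases, 7 were lower and none higher (median -0.28). Dnaja3, a matrix co-chaperone, was at 51.4, 54.6 and 51.2 CPM against 147, 140 and 142 CPM (log2 fold change -1.45, SE 0.061, adjusted p = 3.70e-18), and its partner Hspa9, mortalin, differed by -0.73.

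Targets of p53, the tumor suppressor that halts the cell cycle or triggers apoptosis, were higher in LbNOX cells. Among 37 tested, 28 were higher and 2 lower, with a median of 0.63. The interaction was called for 22 positive and 1 negative. With antimycin, 29 of the 37 rose in LbNOX cells and 1 fell (median 0.74), whereas 15 rose and 9 fell in mitoLbNOX cells (median 0.10). None of the 37 was called between the lines with piericidin (median -0.07; the antimycin difference was more positive than the piericidin one for 23) or with DMSO (median 0.04). Over all genes, 3.03% were called with piericidin and 0.326% with DMSO, so a list of this size would hold few calls at those shares. An unadjusted p under 0.05 was found for 1486 and 664 genes.

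Cdkn1a (ENSMUSG00000023067, chr17:29090976-29100727, plus strand), which encodes the cell cycle inhibitor p21, was at 409, 414 and 377 CPM in LbNOX cells and at 147, 152 and 147 CPM in mitoLbNOX cells (log2 fold change 1.43, SE 0.052, adjusted p = 8.27e-20). It rose in both lines, by 1.89 and 0.56, and the antimycin-treated control mean was 190 CPM. The LbNOX libraries therefore stood above both other lines. Trp53inp1, a p53 cofactor in stress, was at 48.4, 48.6 and 43.8 CPM against 10.0, 8.13 and 14.8 CPM (log2 fold change 2.08, SE 0.25, adjusted p = 6.78e-08) and rose by 2.62 in LbNOX cells. Its response in mitoLbNOX cells was 0.43 (adjusted p = 0.193).

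Pidd1, which assembles the caspase-2 activating complex, was at 19.6, 20.5 and 19.7 CPM against 3.99, 4.49 and 6.15 CPM (log2 fold change 2.01, SE 0.19, adjusted p = 3.85e-10). It rose in LbNOX cells (0.71) and fell in mitoLbNOX cells (-1.31). Trp53 itself was at 141, 132 and 141 CPM against 130, 123 and 128 CPM (log2 fold change 0.12, SE 0.057, adjusted p = 0.0999), although it fell in both lines, by -0.20 and -0.29. The 2 lower members were Pmaip1, the BH3-only protein NOXA, at -0.61 and Rrm2b, a ribonucleotide reductase subunit, at -0.42, the latter not called without replicate 1 or 3 of the LbNOX cells or replicate 1 or 2 of the mitoLbNOX cells (-0.43 to -0.31). Gadd45a, a growth arrest gene known to respond both to p53 and to ATF4, was among the 10 largest differences in the lower direction, at 1.17, 1.43 and 0.920 CPM against 14.1, 19.5 and 14.5 CPM (log2 fold change -3.77, SE 0.31, adjusted p = 2.88e-11).

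DNA replication genes were also higher. Of 45 tested, 39 were higher in LbNOX cells and 1 was lower (median 0.72). In LbNOX cells 14 rose and 6 fell with antimycin (median 0.11), and in mitoLbNOX cells 3 rose and 38 fell (median -0.65). The interaction was called for 35 positive and 1 negative. Ccne1 (ENSMUSG00000002068), cyclin E1 of the G1/S transition, was at 95.3, 88.1 and 97.4 CPM against 37.6, 29.3 and 30.8 CPM (log2 fold change 1.53, SE 0.090, adjusted p = 1.35e-14), and every LbNOX library was above every mitoLbNOX library. It rose by 0.21 in LbNOX cells and fell by 1.20 in mitoLbNOX cells, while antimycin-treated control cells averaged 11.2 CPM. Fen1, the flap endonuclease of lagging-strand synthesis, was at 183, 178 and 185 CPM against 79.7, 82.8 and 72.4 CPM (log2 fold change 1.22, SE 0.054, adjusted p = 9.24e-18). Gins3, a subunit of the replicative helicase, differed by 1.26, and Ccne2, cyclin E2, by 1.22. The lower member was Cdt1, the licensing factor, at -0.30 (adjusted p = 0.00054). With piericidin 1 of the 45 was called (all genes, 3.03%), Rrm2, a ribonucleotide reductase subunit, at 0.22.

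Genes of G2 and mitosis did not share this direction. Of 30 tested, 9 were higher and 11 lower in LbNOX cells (median -0.00), and antimycin lowered 28 of them in each line, with medians of -0.72 in LbNOX and -0.62 in mitoLbNOX cells. Ccnb1, the mitotic cyclin B1, was at 123, 120 and 115 CPM against 224, 239 and 232 CPM (log2 fold change -0.96, SE 0.051, adjusted p = 1.19e-15), and it fell in both lines, by -1.21 and -0.27. Ccnf, cyclin F, had the opposite order, at 59, 55.1 and 59.7 CPM against 32.8, 31.7 and 30.0 CPM (log2 fold change 0.88, SE 0.087, adjusted p = 1.31e-09). Among 12 G1 cyclins, their kinases and inhibitors, 7 were higher and 2 lower (median 0.57). Ccnd1, cyclin D1, rose in LbNOX cells (0.36) and fell in mitoLbNOX cells (-0.36), and the lower members were Ccnd2 at -0.52 and Cdk6 at -0.20, which was not called without replicate 1 or 3 of the LbNOX cells or replicate 1 of the mitoLbNOX cells (-0.17 to -0.14).

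DNA damage response and repair genes numbered 10 higher and 4 lower of 24 (median 0.14). Clspn, an adaptor of the replication checkpoint, was at 32.5, 25.4 and 27.5 CPM against 12.9, 16.5 and 12.4 CPM (log2 fold change 1.04, SE 0.11, adjusted p = 2.59e-09). H2afx, the histone variant marked at double-strand breaks, was at 9.61, 12.9 and 11.8 CPM against 44.5, 43.0 and 37.9 CPM (log2 fold change -1.88, SE 0.13, adjusted p = 2.96e-13). It fell by 2.13 in LbNOX cells and by 0.35 in mitoLbNOX cells. Atr, the apical kinase of the replication checkpoint, differed by -0.90, and the other lower members were Parp2 at -0.32 and Rad9a at -0.19. The call of Rad9a (adjusted p = 0.0497) was lost with DESeq2's Wald test (adjusted p = 0.0726) and when any library but replicate 2 of the mitoLbNOX cells was left out (-0.21 to -0.13).

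Sterol synthesis and uptake genes were higher in 22 of 23 cases, with a median of 0.59, and none was lower. Antimycin lowered 16 of the 23 in LbNOX cells (median -0.35) and all 23 in mitoLbNOX cells (median -0.89), and the interaction was positive for 15. Idi1 (ENSMUSG00000058258, chr13:8885501-8892451, plus strand), an isomerase of the isoprenoid pathway, was at 140, 135 and 126 CPM against 41.6, 41.8 and 42.8 CPM, a 3.18-fold difference with no overlap (log2 fold change 1.67, SE 0.075, adjusted p = 1.95e-17). Its response was -0.09 in LbNOX cells (adjusted p = 0.301) and -1.56 in mitoLbNOX cells, and the control mean was 149 CPM with DMSO and 13.6 CPM with antimycin.

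Acat2, which condenses acetyl-CoA at the head of the pathway, was at 84.3, 85.4 and 87.1 CPM against 31.9, 33.1 and 29.2 CPM (log2 fold change 1.45, SE 0.066, adjusted p = 2.44e-17). Stard4, a cholesterol carrier, differed by 1.45. With piericidin 5 sterol genes (1 to 7 over the alternatives) were higher in LbNOX cells, among them Hmgcs1, Idi1 and Fdps. Of 11 fatty acid synthesis genes, 5 were higher and 1 lower (median 0.31). Scd2, a stearoyl-CoA desaturase, was at 332, 333 and 333 CPM against 160, 158 and 164 CPM (log2 fold change 1.05, SE 0.045, adjusted p = 6.17e-18). The others were Fasn at 0.72, Srebf1 at 0.58, Fads2 at 0.50 and Acly at 0.42, and the lower gene was the elongase Elovl5 at -0.31.

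**Figure D4:**
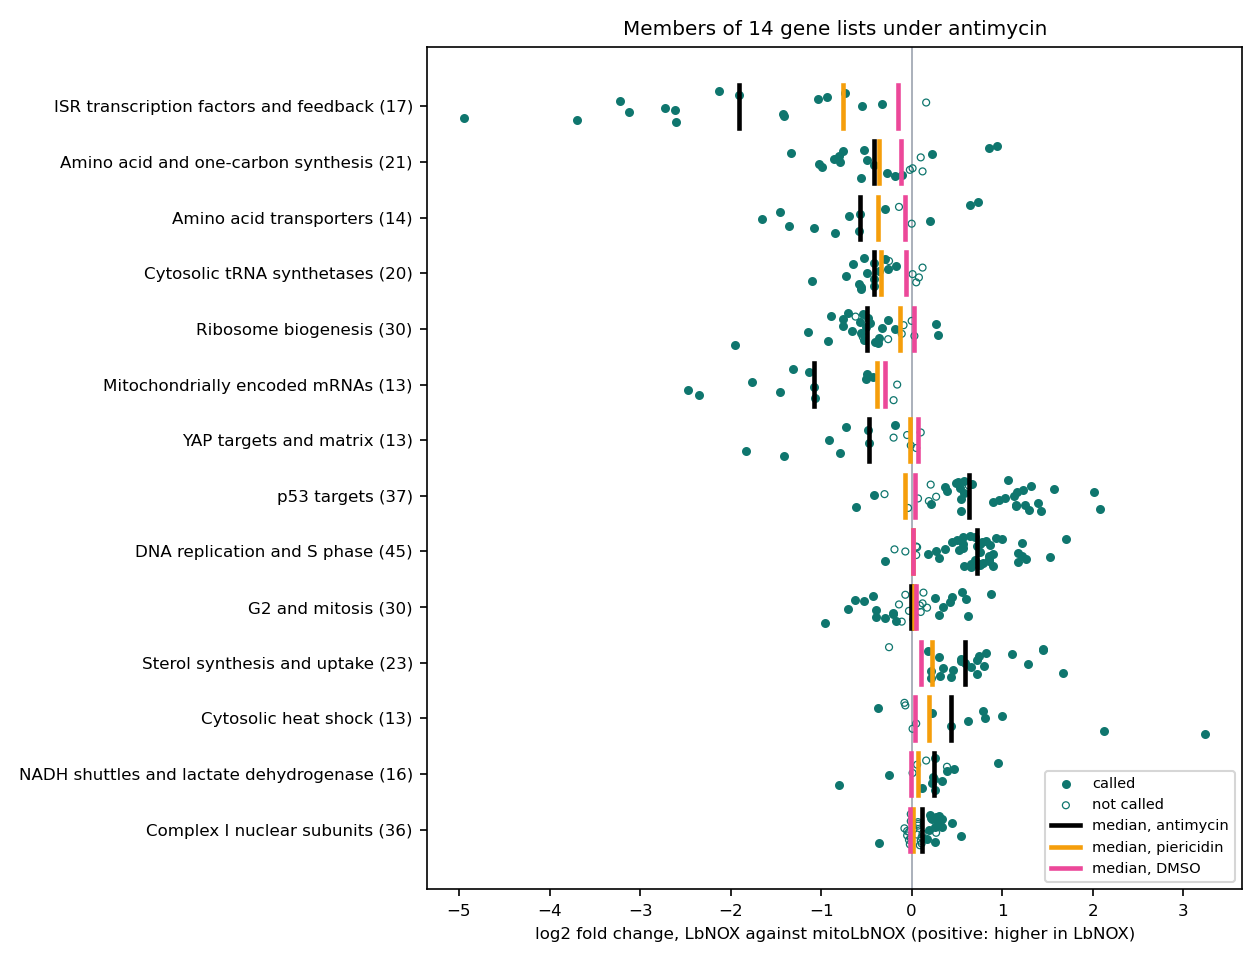
Log2 fold change of LbNOX over mitoLbNOX cells with antimycin (x axis) for the tested members of 14 gene lists. Each point is a gene, filled if called and open if not. Bars are list medians of the difference between the lines with antimycin (black), piericidin (orange) and DMSO (pink). With antimycin the ISR factors center at -1.91 and the mitochondrially encoded mRNAs at -1.08, while DNA replication centers at 0.72, p53 targets at 0.63 and sterol synthesis at 0.59.

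Most mRNAs of the mitochondrial genome were lower in the LbNOX cells. Of 13 mitochondrially encoded mRNAs, 11 were lower and none higher (median -1.08), with 10 negative interactions. Antimycin lowered 10 of them in LbNOX cells (median -1.37). In mitoLbNOX cells it lowered 9 and raised 2 (median -0.43). The lines already differed at 3 of the 13 with DMSO (mt-Nd1, mt-Nd2 and mt-Cytb, at -0.37 to -0.43) and at 5 with piericidin (3 to 7 over the alternatives; median of the 13, -0.38).

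mt-Cytb, the complex III subunit that holds the antimycin site (chrM:14145-15288), was at 155, 141 and 147 CPM against 535, 513 and 447 CPM (log2 fold change -1.76, SE 0.088, adjusted p = 2.13e-16). It fell by 2.34 in LbNOX and by 0.96 in mitoLbNOX cells, and the control mean was 684 CPM with antimycin. mt-Nd3, a complex I subunit, was at 8.26, 7.63 and 16.8 CPM against 66.2, 52.1 and 48.8 CPM (log2 fold change -2.35, SE 0.25, adjusted p = 5.60e-09). mt-Nd4, another complex I subunit, differed by -1.46. The groups did not overlap for these genes.

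Along the genome the differences were uneven. The rRNAs at its start, mt-Rnr1 and mt-Rnr2, differed by 0.15 (adjusted p = 0.369) and 0.07 (adjusted p = 0.602), and mt-Nd1, the first mRNA after them, by -0.20 with no overlap between the groups (adjusted p = 0.0526). That difference was called with plate edge as a covariate (adjusted p = 0.0331), only the groups compared (0.0195), no count filter (1.71e-09) and without replicate 3 of the mitoLbNOX cells (-0.27, adjusted p = 0.0226). The cytochrome oxidase subunits mt-Co1, mt-Co2 and mt-Co3 differed by -0.51, -0.43 and -0.49, less than their neighbors mt-Nd2 at -1.07, mt-Atp8 at -1.31 and mt-Atp6 at -1.13. mt-Nd4l was at 0, 0 and 5.31 CPM against 17.2, 7.81 and 5.33 CPM (log2 fold change -2.47, SE 0.72, adjusted p = 0.00578), a call that was lost without replicate 1 of the mitoLbNOX cells (-1.86, adjusted p = 0.0581) and when only the groups compared were modelled (adjusted p = 0.0737). Its size rests on the LbNOX library with counts, replicate 3: without it both LbNOX libraries were at 0 and the fitted value of -9.75 is no measure of size, while without replicate 1 of the LbNOX cells it was -1.81. mt-Nd6, which is encoded on the other strand, differed by -0.16 (adjusted p = 0.332). The glutamine tRNA mt-Tq, on that strand too, was higher, at 2.42, 1.91 and 1.84 CPM against 0.342, 0.642 and 0.82 CPM (log2 fold change 1.73, SE 0.52, adjusted p = 0.00799), on a mean of 13.3 counts a library. Its interaction was not called (1.91, adjusted p = 0.126), and neither was any difference with antimycin among the other 4 mitochondrial tRNAs tested. The rRNAs and this tRNA were added after values were seen. The reads of the rRNAs came through poly(A) selection, the libraries were not strand-specific, and mt-Atp8 and mt-Nd4l overlap their neighbors, so reads there could be assigned to either gene. As a share of all counts, mRNAs of the mitochondrial genome took 0.524 to 0.545% in LbNOX cells and 0.732 to 0.859% in mitoLbNOX cells, and its rRNAs took 1.65 to 1.79% and 1.39 to 1.71%.

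**Figure D5:**
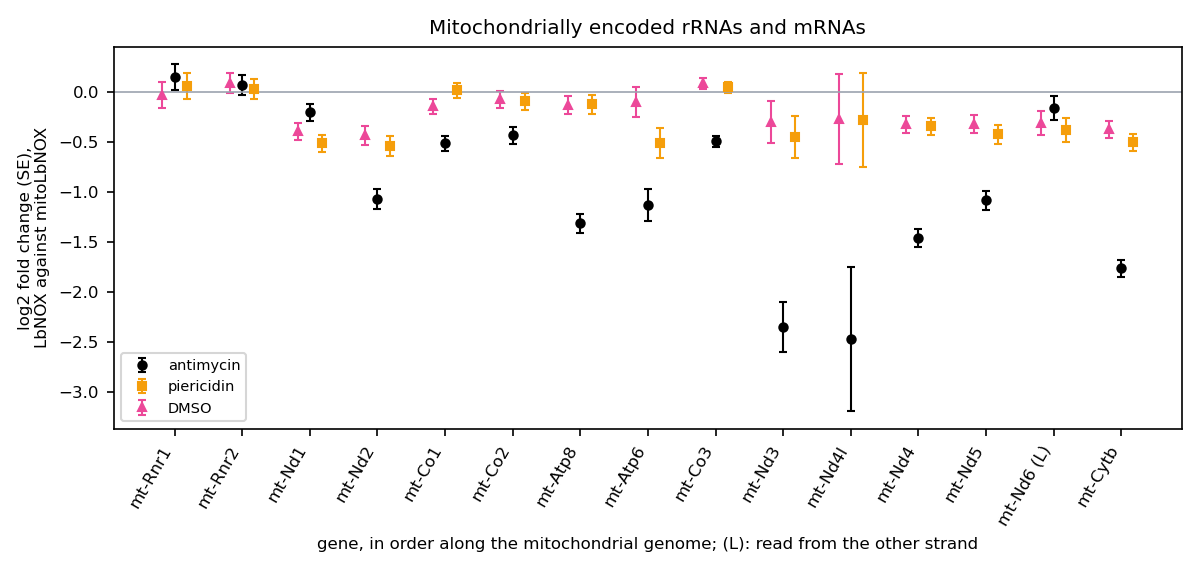
Log2 fold change of LbNOX over mitoLbNOX cells for the rRNAs and mRNAs of the mitochondrial genome, in genome order on the x axis, with antimycin, piericidin or DMSO; bars are standard errors. With antimycin mt-Rnr1 is at 0.15 and mt-Cytb at -1.76, and the value of mt-Nd4l (-2.47) rests on 1 LbNOX library with counts.

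Nuclear subunits of the same complexes differed little. Of 36 nuclear complex I subunits, 15 were higher (8 without a count filter) and 1 lower (median 0.11), and of 23 subunits of complexes IV and V, 11 were higher and 2 lower (median 0.17). Of 9 nuclear complex III subunits, Uqcrh was higher at 0.44 and Uqcrq lower at -0.26, with a median of -0.01 over the 9. Over all genes, 20.4% were higher and 23.9% lower. The call of Uqcrq was lost when any of the LbNOX libraries or replicate 1 of the mitoLbNOX cells was left out (-0.27 to -0.20). Ndufs4, the lower complex I subunit, was at 38.9, 36.8 and 42.2 CPM against 55.6, 47.2 and 49.1 CPM (log2 fold change -0.36, SE 0.069, adjusted p = 7.87e-05). Atpif1, the inhibitor of ATP synthase, was at 107, 120 and 104 CPM against 78.2, 74.0 and 75.0 CPM (log2 fold change 0.54, SE 0.077, adjusted p = 9.42e-07). The lower ATP synthase subunits were Atp5c1 at -0.20 and Atp5b at -0.08. The call of Atp5b (adjusted p = 0.0466) was lost with DESeq2 size factors (adjusted p = 0.0669), with DESeq2's Wald test (0.0774) and without replicate 2 or 3 of the LbNOX cells or replicate 1 or 3 of the mitoLbNOX cells (-0.08 to -0.05).

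Genes of NADH metabolism differed by less than the stress genes. Of 16 NADH shuttle components, lactate dehydrogenases and related carriers, 10 were higher and 2 lower (median 0.24). Got1, the cytosolic aspartate aminotransferase of the malate-aspartate shuttle, was at 79.5, 75.2 and 89.6 CPM against 149, 131 and 144 CPM (log2 fold change -0.80, SE 0.078, adjusted p = 1.15e-09), and the other lower member was Slc25a12, an aspartate-glutamate carrier, at -0.25, not called without replicate 2 or 3 of the LbNOX cells or replicate 1 or 3 of the mitoLbNOX cells (-0.21 to -0.19). Ldha, which converts pyruvate to lactate with NADH, differed by 0.47 with antimycin (adjusted p = 3.09e-12) and by 0.47 with piericidin (adjusted p = 9.37e-11). Slc16a3, a lactate exporter, differed by 0.95 with antimycin and by 1.67 with piericidin. Of 16 genes of NAD synthesis and use, 3 were higher (Sirt7, Slc25a51 and Nadk) and 2 lower (median of the 16, 0.09). The shares over all genes were 20.4% and 23.9%, which these counts did not exceed. The lower genes were Nampt, which salvages nicotinamide, at -0.59, and Nnmt at -1.95, not called without replicate 3 of the mitoLbNOX cells.

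Of 11 dehydrogenases that pass electrons to ubiquinone, 4 were higher (Prodh, Etfb, Gpd2 and Sdhd, at 0.23 to 0.60) and 1 lower (Sdhb at -0.12), with a median of 0.08. Sdhb was not called without replicate 1 or 3 of the LbNOX cells or replicate 1 or 2 of the mitoLbNOX cells (-0.12 to -0.09). Dhodh, the pyrimidine synthesis enzyme of this group, was at 23.3, 19.6 and 19.9 CPM against 22.4, 22.4 and 20.5 CPM, and the groups overlapped (log2 fold change -0.05, SE 0.10, adjusted p = 0.723). Of 19 genes of pyrimidine synthesis and salvage, 8 were higher and 5 lower (median -0.05), the lower count being 3 to 5 over the alternatives. Of 14 genes of purine synthesis, 5 were higher and 2 lower (median 0.08). The lower purine count was 0 to 2 with 1 library left out, and 0 without replicate 3 of the LbNOX cells. Gart, a trifunctional purine enzyme, was at 162, 149 and 156 CPM against 94.5, 94.8 and 102 CPM (log2 fold change 0.68, SE 0.067, adjusted p = 1.10e-09).

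Glycolysis and hypoxia-linked genes did not take the same direction with both inhibitors. With antimycin 6 of 17 glycolysis and glucose uptake genes were higher and 6 lower (median 0.12), and with piericidin 8 were higher and none lower (median 0.25). The antimycin difference was more negative than the piericidin one for 7 of the 17 and more positive for none. Hk2, the inducible hexokinase, was at 23.2, 23.0 and 27.0 CPM against 97.0, 84.7 and 95.5 CPM (log2 fold change -1.92, SE 0.10, adjusted p = 1.10e-15), and with piericidin it differed by 0.01 (adjusted p = 0.994). Slc2a1, the glucose transporter GLUT1, was at 39.6, 34.3 and 33.8 CPM against 134, 125 and 128 CPM (log2 fold change -1.84, SE 0.080, adjusted p = 7.84e-18). It fell in LbNOX cells (-0.28) and rose in mitoLbNOX cells (1.56).

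Of 15 targets of the hypoxia-inducible factor HIF, some of them shared with the glycolysis list, 6 were higher and 6 lower with antimycin (median -0.22), against 7 higher and 1 lower with piericidin (median 0.43). Ndrg1, a stress-responsive gene, was at 95.1, 99.7 and 93.8 CPM against 468, 439 and 451 CPM (log2 fold change -2.23, SE 0.061, adjusted p = 1.05e-22) and rose in both lines. Of 3 genes of glucose sensing by MondoA, 2 were higher, Txnip, its best known target, at 1.38 (adjusted p = 0.00038) and Mlx, its partner, at 0.34.

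Ribosome biogenesis factors were lower in 21 of 30 cases and higher in 2 (median -0.49). In mitoLbNOX cells antimycin raised 24 and lowered none (median 0.45), and in LbNOX cells it raised 8 and lowered 11 (median 0.04). Myc, a transcription factor that drives ribosome production and growth and was counted in this list, was at 37, 30.9 and 33.2 CPM against 133, 125 and 132 CPM (log2 fold change -1.95, SE 0.062, adjusted p = 3.94e-21). It fell by 1.11 in LbNOX cells and rose by 1.05 in mitoLbNOX cells, a clear reversal between the lines. Polr1b, a subunit of RNA polymerase I, was at 25.9, 26.3 and 32.5 CPM against 68.2, 58.9 and 61.4 CPM (log2 fold change -1.15, SE 0.10, adjusted p = 1.14e-10). Nop56, a core protein of box C/D snoRNPs, differed by -0.92, and the 2 higher genes were Nop10 at 0.29 and Bop1 at 0.27.

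Immediate early genes divided, with 4 higher and 8 lower of 19 (median -0.20). Egr1, a serum-response transcription factor, was at 40.7, 35.4 and 37.4 CPM against 10.8, 7.49 and 11.2 CPM (log2 fold change 1.93, SE 0.13, adjusted p = 1.03e-13), and it fell in both lines, by -1.33 and -3.17. Klf6, a zinc-finger factor, had the opposite order, at 60.8, 61.3 and 62.7 CPM against 197, 173 and 179 CPM (log2 fold change -1.57, SE 0.054, adjusted p = 2.40e-20). The other higher genes were Fos at 2.08, Junb at 1.00 and Dusp6 at 0.63. Of 13 YAP targets and matrix genes, 8 were lower and none higher (median -0.47). Ankrd1, a YAP target of muscle cells, was at 125, 138 and 141 CPM against 522, 449 and 465 CPM (log2 fold change -1.83, SE 0.062, adjusted p = 1.56e-20), and it fell in LbNOX cells (-0.98) and rose in mitoLbNOX cells (1.05). Cyr61 and Ctgf, matricellular YAP targets, were lower with antimycin (-1.41 and -0.79) but higher with DMSO (0.24 and 0.30) and piericidin (0.35 and 0.34).

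Cytosolic heat shock genes were mostly higher, 8 of 13 against 1 lower (median 0.43), and they fell in 9 cases in mitoLbNOX cells (median -0.54). Hspa1b, an inducible HSP70, was at 62.5, 57.9 and 57.4 CPM against 14.7, 11.3 and 14.7 CPM (log2 fold change 2.12, SE 0.12, adjusted p = 5.46e-15) and rose by 1.45 in LbNOX cells while falling in mitoLbNOX cells (-0.54). Its near-identical paralog Hspa1a can share its reads, so the split between them is uncertain. Dnajb1, an HSP40, differed by 1.00. The lower gene was Hspa4l at -0.37. Of 17 NRF2 antioxidant genes, 3 were higher and 6 lower (median -0.16). Hmox1, heme oxygenase, was at 50.4, 49.7 and 56.7 CPM against 176, 162 and 174 CPM (log2 fold change -1.70, SE 0.072, adjusted p = 4.64e-18), although with DMSO it was higher in LbNOX cells (0.45, adjusted p = 0.00158). The higher genes were G6pdx, the NADPH-producing glucose-6-phosphate dehydrogenase, at 0.98, Prdx1 at 0.46 and Txn1 at 0.29.

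Of 19 autophagy and lysosome genes, 5 were higher and 6 lower (median 0.03), against 20.4% and 23.9% over all genes. Sqstm1, the autophagy receptor p62, was at 915, 900 and 894 CPM against 2320, 2250 and 2300 CPM (log2 fold change -1.34, SE 0.032, adjusted p = 2.54e-24) and rose in both lines. The higher genes were Ulk1 at 1.08, Wipi1 at 0.60, Map1lc3b at 0.39, Gabarapl2 at 0.24 and Becn1 at 0.19. Neither of the last pair was called without replicate 1 of the LbNOX cells (0.19 and 0.14), and Becn1 was not called without replicate 2 of the mitoLbNOX cells (0.10). Of 11 interferon response genes, 5 were lower and 2 higher (median -1.22). The interaction was called negative for 1 of the 11 and positive for 2. Ifit1, an antiviral RNA-binding protein, was at 2.33, 1.19 and 3.17 CPM against 9.68, 11.1 and 11.1 CPM (log2 fold change -2.23, SE 0.30, adjusted p = 4.47e-07), whereas Irf1 differed by 0.84 and Ifi35 by 0.65. The other lower genes were Rsad2, Ifit3, Oasl2 and Ifih1, at -1.43 to -3.41. Oasl2 was not called without replicate 2 of the LbNOX cells or replicate 1 of the mitoLbNOX cells (-1.23 and -1.40). Rsad2 (-3.41) moved to -5.58 without replicate 3 of the LbNOX cells, and Ifih1 (-1.43) ranged from -2.14 to -1.08 with 1 library left out.

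Genes of myoblast identity were measured in all 8 cases, and 4 were lower and 1 higher (median -0.05). Myf5, a myogenic transcription factor, was at 7.27, 6.08 and 4.70 CPM against 32.7, 27.2 and 27.0 CPM (log2 fold change -2.25, SE 0.15, adjusted p = 1.17e-13), with a control mean of 130 CPM with antimycin and 10.6 CPM with DMSO. Myod1, the other main factor of this class in the list, was at 66.4, 59.5 and 55.2 CPM against 98.3, 86.0 and 87.2 CPM (log2 fold change -0.58, SE 0.069, adjusted p = 4.16e-08). Ncam1 differed by -0.37 and Vim by -0.20, and the adhesion molecule Cdh15 by 0.47. Of 12 myotube markers 2 were tested, and Acta1, skeletal muscle actin, was lower (-0.87, adjusted p = 2.84e-06) while Mylpf differed by 0.42 (adjusted p = 0.34). Of 12 markers of other cell types 3 were tested, all at low levels, with Col2a1 at 1.29 (adjusted p = 0.032), Pecam1 at -1.07 (adjusted p = 0.027) and Cd68 at -0.76 (adjusted p = 0.064). Col2a1 was not called without replicate 1 of the LbNOX cells (0.83, adjusted p = 0.232), replicate 2 of either line or replicate 3 of the mitoLbNOX cells (1.07 to 1.35). Pecam1 was not called without replicate 2 or 3 of the LbNOX cells or replicate 1 or 2 of the mitoLbNOX cells (-1.0 to -0.77), and it was at -1.69 without replicate 1 of the LbNOX cells.

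The remaining genes with the largest differences belonged to none of these lists. In the higher direction, Ddit4l, a relative of the mTORC1 inhibitor Ddit4, was at 15.3, 18.6 and 17.5 CPM against 3.42, 2.67 and 1.48 CPM (log2 fold change 2.78, SE 0.31, adjusted p = 1.08e-08). It rose in LbNOX cells by 2.07. Mxd3, an antagonist of MYC family dimers, was at 27.6, 28.1 and 28.4 CPM against 7.52, 5.13 and 5.82 CPM (log2 fold change 2.19, SE 0.14, adjusted p = 5.42e-14) and fell in both lines, by -0.31 and -2.41. Arc, an activity-regulated gene, differed by 2.36, Fam212b by 2.05 and Mgea5, the enzyme that removes O-GlcNAc from proteins, by 2.01.

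In the lower direction, F3, tissue factor of the coagulation cascade, was at 10.7, 11.1 and 11.4 CPM against 109, 101 and 95.7 CPM (log2 fold change -3.20, SE 0.14, adjusted p = 6.16e-18). It fell in LbNOX cells (-0.67) and rose in mitoLbNOX cells (2.43), and with piericidin the lines differed by 0.13 (adjusted p = 0.798). Adm2, a secreted peptide, differed by -3.29, Tpsab1, a tryptase, by -2.99 and Car6, a secreted carbonic anhydrase, by -2.88. The rule that named these 4 genes required that the groups did not overlap.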

How the data were processed

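RNA-seq libraries of C2C12 myoblasts were grouped by the labels for line, inhibitor and time. The authors used a Smart-seq2 protocol on poly(A) RNA, which keeps no strand information. They demultiplexed with bcl2fastq 2.20.0.422, ran bias-corrected kallisto 0.44 against mouse transcripts (GRCm38) supplemented with the transgenes, and summed to genes with tximport. The deposited values are estimated counts, unnormalized whole numbers summed over flow cells, for 54146 genes and 4 transgenes, and 0 of their columns were unmapped. A count table of this kind assigns shared reads by model, so overlapping genes and paralogs are uncertain. Read files were not analysed here.

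The 37 myoblast libraries treated for 10 hr (13 groups, 7796879 to 14960910 counts) were modelled together with edgeR 4.0.16 (R 4.3.3, TMM, quasi-likelihood F test, Benjamini-Hochberg within each comparison, threshold 0.05), on the 11981 genes whose replicates all reached 16 counts in 1 condition or more. The authors used DESeq2, which is here an alternative (1.42.0, Wald test without shrinkage). SE was obtained from the log2 fold change and the F statistic. The script was tested on simulated data. Replicate pairs were never identical. Genes named were up to 10 per direction with the largest log2 fold changes (mean of at least 50 counts, groups not overlapping, no unnamed predicted genes), up to 4 members with the largest changes from each of 37 gene lists, the transgene, the 2 largest DMSO differences, and Trp53, Atf4, Ddit3, Cdkn1a, Trp53inp1 and Dhodh. Some genes that this rule names are not reported here. The members and lists were chosen with earlier results of these data known, and the comparison of antimycin with piericidin was added after seeing the data. All 675 list entries matched a row. Coordinates are from GENCODE (GRCm38), and figures used matplotlib 3.10.9. Alternatives were DESeq2 size factors, no count filter, DESeq2, a replicate block, only the groups compared, each replicate left out, and plate edge as a covariate.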

Additional observations from a re-analysis of the deposited data

Results flagged for a closer look

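The antimycin response differed between LbNOX and mitoLbNOX cells, by the edgeR interaction test, at 3500 genes, and the difference between the lines changed from piericidin to antimycin at 3349 genes. Among 153 named genes, 125 had a called interaction with antimycin, but they were chosen on differences in the same antimycin libraries, so the share is a description only; over all genes tested, 12.7% had a positive and 16.5% a negative interaction. The 19 below were named by the size of their difference or singly in the naming rule, and the largest adjusted p among them is 0.0194.

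Positive differences of responses, meaning a more positive antimycin response in LbNOX cells, were found for Ddit4l (2.48 on the log2 scale), Arc (2.37), Mgea5 (2.24), Trp53inp1 (2.19), Mxd3 (2.10), Fam212b (2.03), Pidd1 (2.02), Hspa1b (2.00), Egr1 (1.84) and Cdkn1a (1.33). For Mxd3 and Egr1 this was a smaller fall in LbNOX cells. Arc, Pidd1, Mgea5, Fam212b and Hspa1b rose in LbNOX cells and fell in mitoLbNOX cells.

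Negative differences were found for Atf3 (-4.79), Gadd45a (-4.60), Ddit3 (-3.31), F3 (-3.10), Chac1 (-2.69), Atf4 (-2.49), Tpsab1 (-2.37), Adm2 (-1.96) and Trib3 (-1.92). F3 and Atf4 fell in LbNOX cells and rose in mitoLbNOX cells. The transgene transcript was 2.86-fold higher in mitoLbNOX cells with antimycin, and its part in these differences was not tested.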

How the results depend on the processing

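With antimycin, 5311 genes were called between the lines, and the alternatives gave 4612 to 5494, of which 4175 to 5294 were shared with the first count in the same direction and 0 in the opposite one. Leaving out 1 library gave 4691 to 4788, and DESeq2's Wald test gave 5138. The counts of both interaction tests and of each line's own response stayed within 1.5 times under every alternative run. The DMSO count of 39 (11 higher, 28 lower) became 144 (30 and 114) without a count filter and 4 (1 and 3) when only the groups compared were modelled. Leaving out 1 library gave 14 to 22 (5 to 9 and 9 to 17). The piericidin count of 363 (128 and 235) became 193 (63 and 130) with only the groups compared, and 255 to 303 (82 to 128 and 157 to 189) with 1 library left out. The cause of these shifts was not tested.

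Between the lines, same-numbered samples had deviations from their group means that correlated at 0.192, 0.068 and 0.102 with antimycin. The values were 0.123, 0.004 and 0.156 with DMSO and 0.052, 0.221 and 0.159 with piericidin. With antimycin, samples of different number correlated at -0.189 to 0.118, the highest being LbNOX replicate 3 with mitoLbNOX replicate 2. The labels do not say what same-numbered samples share, and whether they share a batch is not known. A replicate block gave 5364 genes with antimycin, 43 with DMSO, 375 with piericidin, 3581 and 3423 for the interactions, and 5633 and 5793 for the responses of LbNOX and mitoLbNOX cells. With this block Rad9a lost its call (adjusted p = 0.0573) and mt-Nd1 gained one (adjusted p = 0.00273).

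For 210 genes followed under 12 alternatives (153 named by rule and 57 after their values were seen), 2403 values kept their side of the threshold, 99 lost the call, 16 gained one and 0 reversed. Calls were lost for 26 genes, among them Atp5b, Becn1, Cdk6, Col2a1, Gabarapl2, Nop10, Oasl2, Pecam1, Rad9a, Sdhb, Slc25a12, Slc25a51 and Xbp1. The p53 targets called higher numbered 24 to 29, ISR factors called lower 14 to 16, sterol genes higher 18 to 22, replication genes higher 36 to 39 and mitochondrially encoded mRNAs lower 10 to 12. Nuclear complex I subunits called higher numbered 8 to 15, and the antimycin list counts that moved by over 1.5 times were otherwise ones of 5 or fewer genes. In the other comparisons larger list counts moved too, such as G2 and mitosis genes with a positive interaction, at 8 (4 to 8).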
